A study of Mus musculus with 8 samples.

Results

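The lysosomal hydrolases and membrane proteins are 43 mouse genes chosen by name: cathepsins and other lysosomal proteases, glycosidases, sulfatases, lipid hydrolases with their activators, the NPC cholesterol export proteins, LAMP-type membrane proteins, phosphatases and progranulin. They were followed in the livers of 8 female Ames dwarf mice (df/df), with 1 Affymetrix U74Av2 array per liver. All probe sets whose single annotated gene symbol was one of the 43 were taken, which gave 58 of 12422 non-control probe sets for 39 of the 8251 genes named on the array. Manba, Arsb, Sgsh and Aga had none. The animals ate standard pellets ad libitum and were 24 to 26 months old when killed, and the 8 livers form 1 group, numbered by the replicate number of their labels. Without another genotype or diet, what can be described is how each gene differed from liver to liver. Ames dwarf mice lack pituitary growth hormone, prolactin and thyroid-stimulating hormone, and without normal littermates no value below can be credited to that.

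Lysosomes are acidic compartments in which hydrolases take apart proteins, glycans, lipids and glycosaminoglycans delivered by endocytosis, phagocytosis and autophagy. Soluble hydrolases reach them mainly through mannose 6-phosphate tags, and heavily glycosylated membrane proteins such as LAMP1 and LAMP2 line the limiting membrane. In liver, hepatocytes make up most of the tissue, whereas Kupffer cells and other macrophages are rich in lysosomes relative to their size and use some cathepsins to process antigens. The transcription factor TFEB binds the CLEAR element, built around an E-box, in many lysosomal promoters.

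Array medians lay between 156 and 181 intensity units, and 43 of the 58 probe sets, for 34 genes, had a mean log2 signal above the filter of 162 units and were tested. Livers were ordered by a macrophage score, the mean centred log2 signal of 14 macrophage genes, none of them a member. It spanned 2.11 log2 units (4.31-fold), with liver 4 (1.26) and liver 8 (0.81) highest and the other 6 livers between -0.85 and 0.07. A hepatocyte score from 20 genes spanned only 0.33 log2 units (1.26-fold), with its highest value, 0.20, in liver 3. The hepatocyte genes did not share 1 order. Their r with their own score lay between -0.349 (Hnf4a) and 0.915 (Ahsg), and Apob alone ranged 5.05-fold. For the macrophage genes, r with their own score lay between 0.519 (Mrc1) and 0.981 (C1qb), and ranges between 1.84-fold (Clec4f) and 15.3-fold (Lyz2). Each gene is part of the score it is set against, so these r are partly built in. Albumin read between 25310 and 37059 units in the 8 arrays. The macrophage and hepatocyte scores ran in opposite directions (Pearson r = -0.742, exact permutation p = 0.0343, adjusted over 5 relations 0.0858, and Spearman rho = -0.738 with p = 0.0458, adjusted 0.115). This relation did not pass after adjustment, and without livers 4 and 8 its r was -0.638. The macrophage score also followed the array medians (r = 0.870, exact permutation p = 0.00861, adjusted 0.0430, rho = 0.833 with p = 0.0154, adjusted 0.0769, and r = 0.589 without livers 4 and 8), but no such relation passed for the 3′ to 5′ ratios of Gapdh and actin or for the spike-in controls (adjusted p = 0.401, 0.286 and 0.716 in exact permutation tests of r). These relations had rho of -0.690, -0.429 and -0.238 (exact permutation adjusted p = 0.116, 0.374 and 0.582). Spike-in signals were higher on arrays 1 to 4 (10.70 to 10.88 on the log2 scale) than on arrays 5 to 8 (10.18 to 10.46), and the correlations of called genes are therefore also given within each of these sets of 4 livers. The macrophage score's own r with the spike-in signals was -0.212 in livers 1 to 4 and -0.970 in livers 5 to 8.

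Most lysosomal genes differed little between livers. The range, highest over lowest signal, had a median of 1.65-fold over the 43 tested probe sets, against 1.63-fold over all 6211. A range of 2-fold or more was found for 8 of the 43, or 18.6%, against 23.4% of all tested probe sets, so wide ranges were no more frequent here than on the whole array. The smallest ranges belonged to Lamp2 (100136_at), Lamp1, Hexa and Naglu, and the largest to Ctsc, Ctss, Cd63, Lgmn, a Psap probe set and a Ctse probe set.

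**Figure D1:**
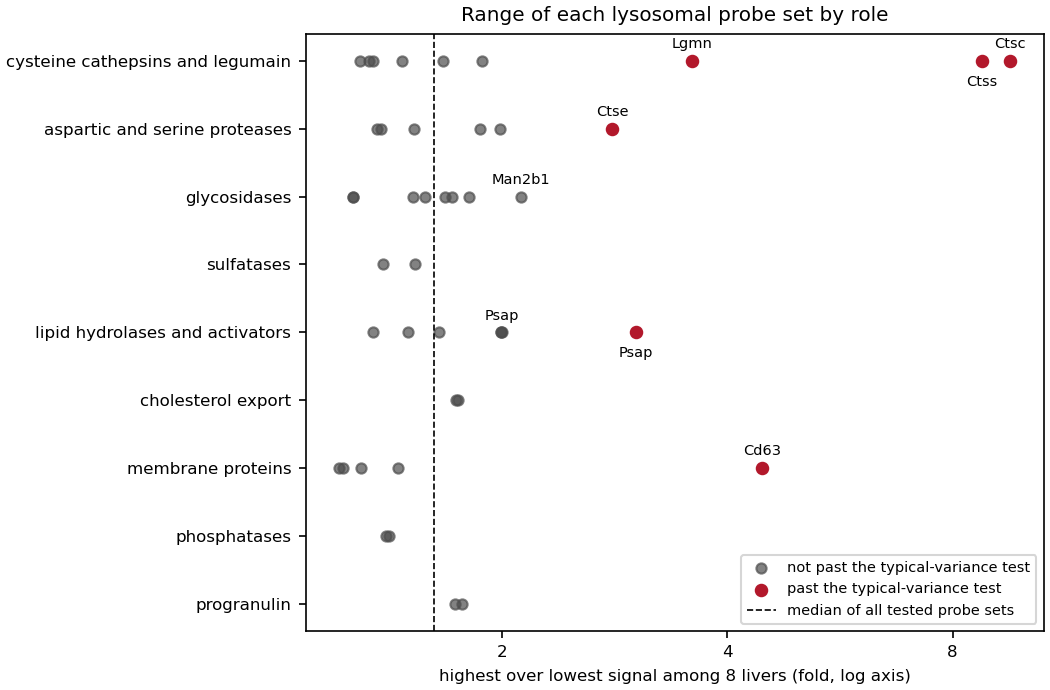
Range over the 8 livers (highest over lowest signal, log axis) of each tested lysosomal probe set, by role, with those past the typical-variance test in red and a dashed line at the median of all tested probe sets, 1.63-fold. Ctsc and Ctss, at 9.55-fold and 8.75-fold, lie farthest to the right, and the membrane proteins other than Cd63 lie at 1.45-fold or less.

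Each variance was set against the typical variance of probe sets of like signal, with a chi-square test adjusted over all 6211 probe sets (the typical-variance test). It called 6 of 43 members, or 14%, against a background of 11.3%: Ctsc, Ctss, Lgmn, Cd63, Ctse (104696_at) and Psap (97560_at). Ctss had an SD of 1.11 log2 units where 0.22 is typical (adjusted p = 3.16e-31), and Ctsc 1.09 where 0.24 is typical (adjusted p = 1.15e-25). In limma's test of the same variances against their own spread, 0 of 43 members passed, against 0.0% of all probe sets, with 5 members and 425 probe sets at an unadjusted p under 0.05. The Psap call was the least secure. Its SD of 0.51 log2 units became 0.22 without liver 2 (adjusted p = 1), and the call was also lost without liver 1 (adjusted p = 0.0854), liver 7 (0.0531) or liver 8 (0.0801), with median scaling (0.0792), with quantile normalization (0.0560) and without the filter (0.0581).

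**Figure D2:**
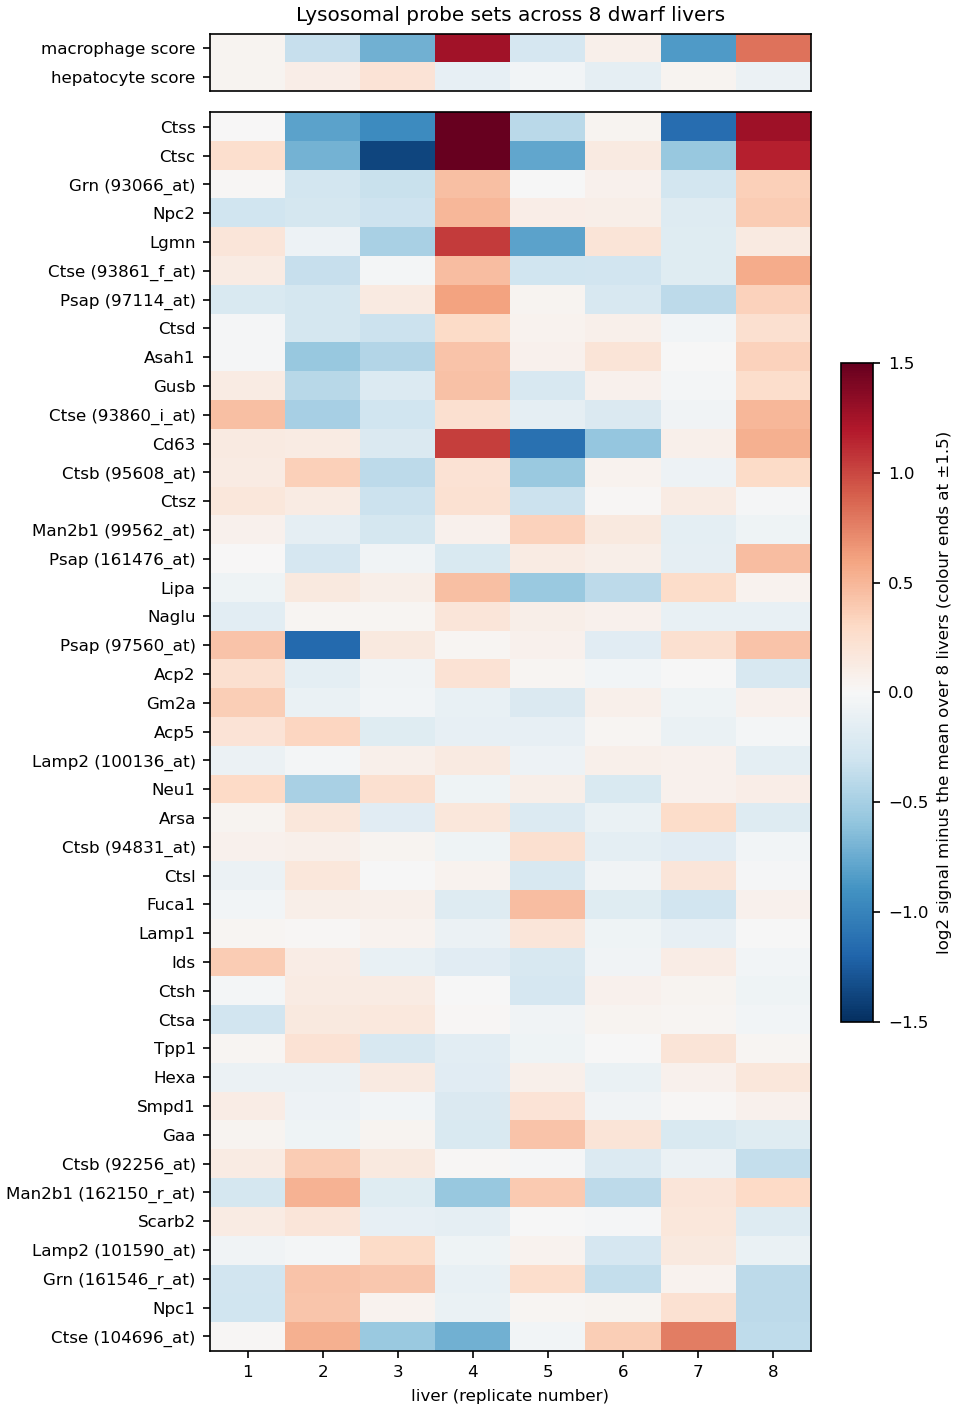
Log2 signal of the 43 tested lysosomal probe sets in each of the 8 livers, minus each probe set's own mean (colour, which ends at ±1.5), with livers 1 to 8 across, probe sets ordered down the page by their t on the macrophage score, and both scores on top. Livers 4 and 8 are red in the upper rows, most strongly for Ctss and Ctsc, and rows such as Lamp1 and Hexa stay pale throughout.

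The macrophage order was followed by Ctss, Ctsc, Grn and Npc2, and by no other tested member after adjustment. Log2 signal was regressed on the macrophage score with limma and p-values were adjusted over all 6211 probe sets. Of the 43 lysosomal probe sets, 4 (9.30%) rose with the score, against 3.28% of all tested probe sets, and 0 fell, against 1.37%, which makes 4.65% of all called in either direction. At an unadjusted p under 0.05 in either direction there were 13 members (30.2%), against 17.3% of all. Of the 13, 12 rose, but the share of all probe sets that rose at this threshold was not counted. Over all members the median slope was -0.01, against -0.02 over all tested probe sets, and the median r -0.04, against -0.07. Because these are whole-tissue arrays, they do not show which cells gave a signal. More macrophages and more RNA per macrophage cannot be told apart either.

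Ctss encodes cathepsin S, a cysteine protease that trims the invariant chain of MHC class II in antigen-presenting cells. Its signals in livers 1 to 8 were 1549, 884, 807, 6113, 1173, 1589, 699 and 3741 units (2069 ± 1902, SD, n = 8). Livers 4 and 8 stood above all others, and the 8 livers fell in exactly the order of the macrophage score. The slope was 1.51 ± 0.09 log2 units per unit of score (SE, limma adjusted p = 4.85e-06). Pearson's r was 0.992 (exact permutation p = 2.48e-05, adjusted over all probe sets 0.0293), the smallest p that all pairings of 8 livers can give, and the rank correlation rho was 1 (exact permutation p = 4.96e-05, adjusted 0.0986). Within livers 1 to 4 and 5 to 8 r was 0.990 and 0.997, and without livers 4 and 8 it was 0.966.

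Ctsc encodes cathepsin C, the dipeptidyl peptidase that activates granule serine proteases of immune cells. It read 681, 350, 220, 2103, 334, 628, 387 and 1284 units in livers 1 to 8 (748 ± 641, SD, n = 8). The highest signals were again those of livers 4 and 8, and the lowest that of liver 3. The slope was 1.43 ± 0.16 (SE, limma adjusted p = 0.000353), with r = 0.950 (exact permutation p = 0.00062, adjusted 0.0520) and rho = 0.810 (exact permutation p = 0.0218, adjusted 0.315). Its r was 0.992 in livers 1 to 4, 0.897 in livers 5 to 8 and 0.767 without livers 4 and 8.

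Grn encodes progranulin, a glycoprotein that is cut into granulins in the lysosome and is abundant in myeloid cells. Probe set 93066_at gave 1697, 1389, 1331, 2308, 1676, 1765, 1396 and 2156 units (1715 ± 360, SD, n = 8), a range of 1.73-fold with livers 4 and 8 on top. Its slope of 0.39 ± 0.08 (SE, limma adjusted p = 0.0113) stands beside slopes of 1.51 and 1.43 for Ctss and Ctsc. It followed the order closely, with r = 0.966 (exact permutation p = 0.000273, adjusted 0.0424) and rho = 0.929 (exact permutation p = 0.00223, adjusted 0.169). Within livers 1 to 4 and 5 to 8 its r was 0.989 and 0.997, and without livers 4 and 8 it was 0.877.

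Npc2 encodes the soluble cholesterol carrier that hands cholesterol to NPC1 for export from the lysosome. Its signals were 1197, 1235, 1197, 2080, 1580, 1572, 1298 and 1924 units (1510 ± 343, SD, n = 8), again with livers 4 and 8 on top. It was the least secure of the calls, with a slope of 0.37 ± 0.10 (SE, limma adjusted p = 0.0470). Its r of 0.858 (exact permutation p = 0.00692, adjusted 0.132) dropped to 0.389 without livers 4 and 8, and rho was 0.714 (exact permutation p = 0.0576, adjusted 0.461). Its r was 0.931 in livers 1 to 4 and 0.977 in livers 5 to 8. The gene whose protein receives this cholesterol, Npc1, took the other direction without passing the test. It read 1911, 3130, 2438, 2199, 2398, 2423, 2756 and 1791 units, with a slope of -0.23 ± 0.11 (SE, limma adjusted p = 0.301).

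**Figure D3:**
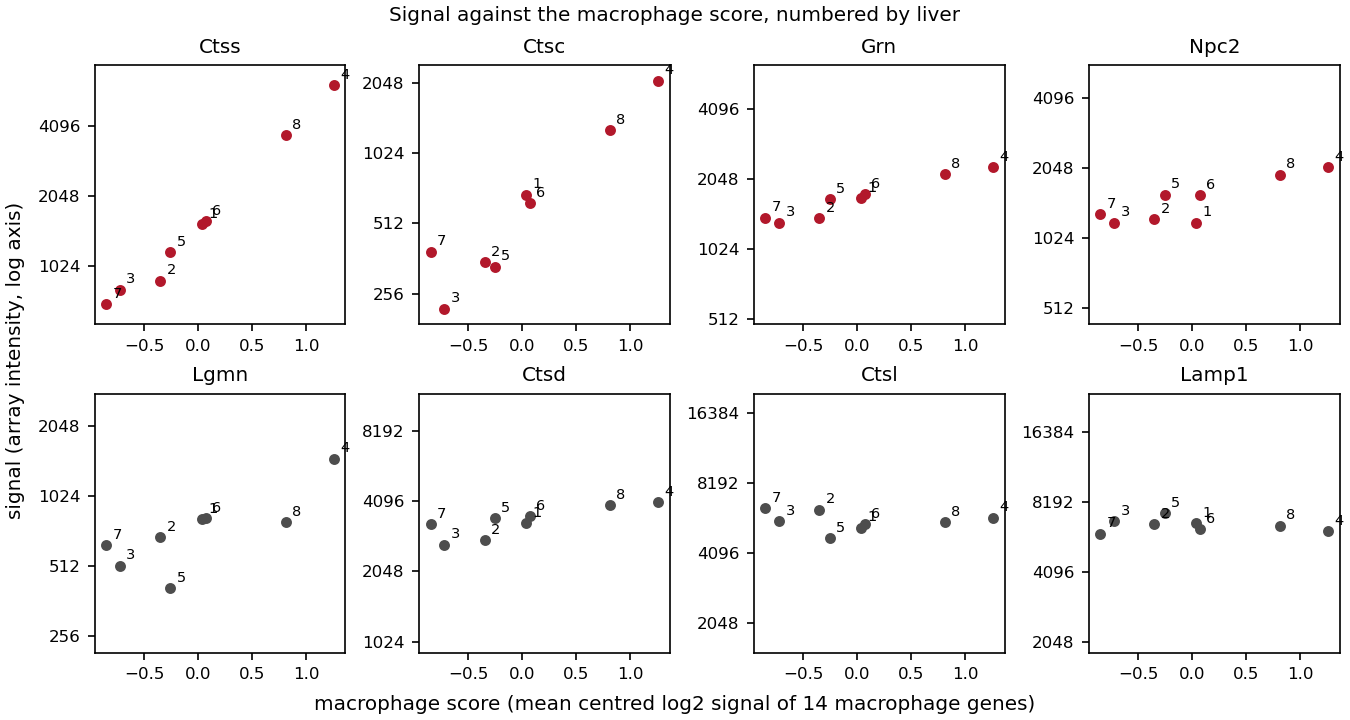
Signal (log2 axis) of 8 lysosomal genes against the macrophage score, 1 point per liver, with livers numbered and the 4 genes past the slope test in red. All panels span the same fold on the vertical axis: Ctss and Ctsc rise steeply to livers 8 and 4, Grn and Npc2 rise less, and Ctsl and Lamp1 are nearly flat.

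These 4 genes moved together, with pairwise r between 0.809 (Npc2 and Ctsc) and 0.974 (Grn and Ctss). Without liver 4, and likewise without liver 8, Ctss and Ctsc were still called and Grn and Npc2 were not. The slope of Grn was 0.42 without liver 4 (adjusted p = 0.124), 0.38 without liver 8 (0.0580) and 0.41 without both (0.999), beside 0.39 over all 8, and that of Npc2 was 0.35, 0.35 and 0.19, beside 0.37. Without both livers 0 members and 0 of all 6211 probe sets passed in limma, with 4 members and 307 probe sets at an unadjusted p under 0.05. Alone, livers 1 to 4 gave 3 of 43 calls (Ctss, Ctsc and Lgmn), against 2.46% of all probe sets, and livers 5 to 8 gave 1 (Ctss), against 0.322%. By exact permutation of r, which is adjusted over the same probe sets, 2 members (Ctss and Grn) passed, against a background of 1.11%, and by permutation of rho 0 passed, against 0.0%. With both scores in 1 fit, 2 members rose with the macrophage score, Ctss (slope 1.51, adjusted p = 0.000755) and Ctsc (1.27, adjusted p = 0.0362), against 0.805% of all tested probe sets, whereas Grn (adjusted p = 0.301) and Npc2 (0.549) did not.

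Scaled to a common median in place of the deposited trimmed mean, arrays shifted by between -0.10 (liver 8) and 0.11 (liver 3) log2 units. Over all tested probe sets 157 of 347 calls (45.2%) were then of rising genes, against 204 of 289 (70.6%) as deposited, and Ctss, Ctsc and Grn remained called while Npc2 did not. Other immune genes shared the order. All 7 tested MHC class II probe sets and 11 of 12 tested interferon-response probe sets rose with the score, against 3.28% of all tested probe sets. Here and below, signals were summed over all probe sets of a list, tested or not, whereas calls count tested ones only. The sums of these 2 lists were 4525 to 56458 and 4864 to 70031 units, with the highest sum of both in liver 4. No deposited intensity was 0. Of the marker lists of other cells, neutrophils (0 of 3 probe sets called, summed signal 1487 to 2112 units), B and plasma cells (0 of 5, 1866 to 2646), endothelium (0 of 5, 1295 to 2441), stellate cells (0 of 4, 2544 to 3921), erythroid cells (0 of 2, 7316 to 15557) and T and NK cells (0 of 1, 310.0 to 926) had no call, and dendritic cells had 1 of 3 (Itgax, 1230 to 1757 for the list). Cholangiocyte markers were all under the filter (summed signal 33.0 to 69.4 units). Several of these lists rest on few tested probe sets, and some of their markers were highest in livers 4 and 8, as were 9.31% of all 12422 non-control probe sets. Livers 4 and 8 both stood above the other 6 for 4 of 11 neutrophil probe sets, all untested, among them S100a8 (369 and 247 units in livers 4 and 8, 82.1 to 120 in the others) and S100a9 (231 and 212, 44.0 to 89.2 in the others). The same held for 3 of 6 T and NK cell probe sets, also untested (Cd3e, Gzma and Gzmb), for 6 of 10 stellate cell probe sets (of Col1a1, Col1a2 and Col3a1), for 3 of 21 B and plasma cell probe sets (Ighm) and for 0 of 8 endothelial ones. The part of interferon signalling or of any of these cells in the lysosomal result was not tested.

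The promoters of the called genes are shown because these genes moved together. Those of Lamp1 and Ctsd are shown because they hold the E-box of the CLEAR element, which was not found in the windows of the called genes. Lamp1 and Ctsd were picked for that motif and not for their order of livers. Their r with the macrophage score was -0.229 and 0.826. The sequences are RefSeq windows of assembly GRCm38.p6, and the printed stretch is the 250 bases before each annotated start site, 5′ to 3′ on the gene's strand. Capitals mark CACGTG (the E-box core of the CLEAR element), GAGGAA (the core bound by the macrophage factor PU.1, printed as TTCCTC on the other strand) and TTCNNNGAA (the GAS element of STAT factors), each searched on both strands, and no match overlapped another in these windows.
Ctss, chr3:95526536-95526785, plus strand: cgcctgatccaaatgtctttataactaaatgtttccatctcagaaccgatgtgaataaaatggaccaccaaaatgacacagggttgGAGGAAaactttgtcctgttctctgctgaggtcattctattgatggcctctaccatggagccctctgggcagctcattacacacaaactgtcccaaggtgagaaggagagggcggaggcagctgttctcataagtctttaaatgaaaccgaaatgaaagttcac
Ctsc, chr7:88277835-88278084, plus strand: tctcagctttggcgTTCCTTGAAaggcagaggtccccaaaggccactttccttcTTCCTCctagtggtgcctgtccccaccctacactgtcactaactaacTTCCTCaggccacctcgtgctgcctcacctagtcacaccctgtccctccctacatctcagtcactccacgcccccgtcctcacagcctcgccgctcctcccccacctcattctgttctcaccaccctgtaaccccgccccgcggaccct
Grn, chr11:102430257-102430506, plus strand: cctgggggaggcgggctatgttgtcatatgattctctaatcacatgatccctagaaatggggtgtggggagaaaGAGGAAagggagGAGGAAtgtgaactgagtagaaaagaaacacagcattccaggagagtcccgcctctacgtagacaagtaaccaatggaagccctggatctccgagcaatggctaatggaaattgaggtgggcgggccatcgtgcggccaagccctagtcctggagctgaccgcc
Npc2, chr12:84773113-84773362, minus strand: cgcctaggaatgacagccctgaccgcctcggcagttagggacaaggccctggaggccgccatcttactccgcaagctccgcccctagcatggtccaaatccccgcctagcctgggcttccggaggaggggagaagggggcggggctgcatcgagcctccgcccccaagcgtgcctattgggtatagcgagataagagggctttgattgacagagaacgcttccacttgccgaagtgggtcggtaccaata
Lamp1, chr8:13158911-13159160, plus strand: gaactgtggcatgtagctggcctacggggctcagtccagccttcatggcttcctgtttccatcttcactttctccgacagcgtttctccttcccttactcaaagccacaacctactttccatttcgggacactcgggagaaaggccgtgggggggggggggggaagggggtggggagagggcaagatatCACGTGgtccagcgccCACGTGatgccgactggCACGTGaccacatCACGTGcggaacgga
Ctsd, chr7:142387828-142388077, minus strand: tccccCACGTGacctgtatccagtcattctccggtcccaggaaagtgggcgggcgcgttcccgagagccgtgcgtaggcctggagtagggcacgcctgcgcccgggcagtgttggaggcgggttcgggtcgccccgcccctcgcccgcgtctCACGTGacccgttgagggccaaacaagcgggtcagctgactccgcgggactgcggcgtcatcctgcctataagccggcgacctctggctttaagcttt

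In the full RefSeq windows of 300 bases (250 before and 50 after the start), GAGGAA was found at 2 places each in Ctss, Ctsc and Grn (in Ctss, 1 of them at the start site, outside the printed stretch) and at none in Npc2. The GAS letters were found once in Ctsc. CACGTG was found at 4 places in Lamp1 and 2 in Ctsd and at none in the 4 called genes. Over the 42 windows of 37 member genes, CACGTG was present in 11 (26.2%), against 7.15% of all 32851 windows. The genes were Arsa, Ctsa, Ctsd, Ctsl, Gaa, Gla, Glb1, Lamp1, Lgmn, Naglu and Sgsh. GAGGAA was present in 16 member windows (38.1%), against 28.3% of all, and TTCNNNGAA in 3 (7.14%), against 8.3%. The genes with GAGGAA were Arsa, Cd63, Ctsc, Ctss, Gla, Glb1, Gm2a, Grn, Gusb, Ids, Lamp2, Lipa, Man2b1, Manba, Psap and Smpd1. Of these, only Ctsc, Ctss and Grn were called. Among genes with CACGTG, r with the macrophage score was 0.826 for Ctsd, 0.787 for Lgmn and 0.305 for Naglu. It was -0.070 for Arsa, -0.148 for Ctsl, -0.229 for Lamp1, -0.264 for Ctsa and -0.298 for Gaa. Gla and Glb1 had no tested probe set and Sgsh had no probe set. Any relation of these motifs to the order of livers was not tested. Ctsb, Ctse, Ctsh, Asah1, Npc1 and Aga had no entry. A match is only a run of letters, and binding was not measured.

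The other cysteine cathepsins, and Lgmn, did not share the steep rise of Ctss and Ctsc. Lgmn, an asparaginyl endopeptidase that activates cathepsins, came nearest to the threshold without passing it. It read 813, 681, 514, 1482, 413, 824, 632 and 790 units, highest in liver 4 but not second in liver 8. Its slope was 0.59 ± 0.16 (SE, limma adjusted p = 0.0574), r was 0.787 over all livers and 0.481 without livers 4 and 8, and its variance passed the typical-variance test (adjusted p = 4.75e-05). Cathepsin L (Ctsl), a broad endopeptidase, lay between 4731 and 6376 units with a median of 5573 (r = -0.148, adjusted p = 0.910). Cathepsin H (Ctsh), an aminopeptidase, read 3520, 3892, 3901, 3559, 3013, 3738, 3671 and 3415 units in livers 1 to 8, highest in liver 3 and lowest in liver 5. Cathepsin Z (Ctsz), a carboxypeptidase, lay between 1678 and 2473 (median 2214), highest in liver 4 (r = 0.417). None of the 3 passed the slope test. Cathepsin B (Ctsb) had 3 tested probe sets, which did not share an order: 94831_at lay between 7671 and 10192 units and 95608_at between 345 and 650, and 92256_at read 271, 326, 276, 252, 245, 217, 235 and 195, lowest in liver 8, with pairwise r of 0.445, 0.014 and -0.449.

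Among aspartic and serine proteases, cathepsin D (Ctsd), the main lysosomal aspartic protease, leaned towards the macrophage order without passing. Its signals in livers 1 to 8 were 3306, 2790, 2673, 4079, 3475, 3533, 3267 and 3963 units, with livers 4 and 8 on top in a range of only 1.53-fold. Its slope was 0.25 ± 0.08 (SE, limma adjusted p = 0.122), and r was 0.826 and rho 0.905. Its r with the hepatocyte score was -0.926, the most negative of the 43 members. The 3 probe sets of Ctse, an endosomal aspartic protease, disagreed. Probe set 93861_f_at read 1940, 1399, 1751, 2458, 1454, 1466, 1566 and 2620 units and 104696_at read 633, 906, 426, 381, 611, 812, 1070 and 480. Livers 4 and 8 were at the top of the first and near the bottom of the second. Their r was -0.729, whereas 93860_i_at (812 to 1618 units, median 1071) had r = 0.829 with 93861_f_at and -0.425 with 104696_at. The slopes were 0.38 ± 0.11 (93861_f_at, limma adjusted p = 0.0815), 0.32 (93860_i_at, 0.225) and -0.44 ± 0.20 (104696_at, 0.287), so no direction can be given for Ctse. Without liver 3, 104696_at passed as falling with the score (slope -0.67, adjusted p = 0.0114). Ctsa, the protective protein that stabilises beta-galactosidase and neuraminidase, lay between 1117 and 1522 units (median 1387), and Tpp1, a tripeptidyl peptidase, between 1891 and 2608 (median 2265), both with r slightly below 0 (-0.264 and -0.275).

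The glycosidases, which strip sugars from glycoproteins, glycolipids and glycosaminoglycans, gave 0 calls in 8 tested probe sets of 7 genes, against a background of 4.65%, at which few calls would be seen among 8, and their median r was -0.106. Gusb, beta-glucuronidase, came nearest, with 257 to 464 units (median 348), lowest in liver 2 and highest in liver 4 (r = 0.803, limma adjusted p = 0.154). Hexa, the alpha subunit of beta-hexosaminidase, read 757, 761, 882, 719, 847, 753, 843 and 909 units, and Naglu, which degrades heparan sulfate, 872, 992, 994, 1105, 1034, 1022, 902 and 904. Both ranged 1.27-fold, and liver 4 was lowest for Hexa and highest for Naglu. Gaa, acid alpha-glucosidase, lay between 1978 and 3127 units (median 2304), lowest in liver 4. Fuca1, a fucosidase, lay between 564 and 947 (median 694), and Neu1, a sialidase, between 161 and 276 (median 237). The 2 probe sets of Man2b1, an alpha-mannosidase, lay between 1835 and 2796 units (99562_at) and between 210.1 and 445 (162150_r_at) and were nearly unrelated (r = -0.082). The second read 259, 445, 274, 210.1, 408, 236, 351 and 383 units in livers 1 to 8, lowest in liver 4 (slope -0.22 ± 0.17, adjusted p = 0.594). Of the sulfatases, Arsa, arylsulfatase A, lay between 641 and 891 units (median 723) and Ids, iduronate sulfatase (99883_g_at), between 216 and 331 (median 246), with r of -0.070 and -0.228.

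Lipid hydrolases and their activators had a median r of 0.224 and 0 calls in 7 probe sets, against the same background. Asah1, acid ceramidase, lay between 273 and 544 units (median 412), lowest in liver 2 and highest in liver 4 (r = 0.753, limma adjusted p = 0.138). Psap, the precursor of the saposins that present sphingolipids to hydrolases, had 3 probe sets. Of these, 97114_at read 3783, 3715, 4876, 6749, 4574, 3771, 3374 and 5645 units, with livers 4 and 8 on top, a slope of 0.36 ± 0.11 (SE, adjusted p = 0.0910) and r = 0.760, which became -0.085 without those livers. Its other probe sets did not share that order: 97560_at read 370, 122.5, 304, 279, 287, 243, 323 and 370.0 units, lowest in liver 2, and 161476_at lay between 556 and 916, with pairwise r of 0.212, 0.270 and 0.536. Lipa, lysosomal acid lipase, which frees cholesterol and fatty acids from lipoproteins, ranged 2.0-fold between 922 and 1842 units (median 1420), highest in liver 4 but lowest in liver 5 (r = 0.224). Smpd1, acid sphingomyelinase, lay between 1907 and 2565 (median 2203) and Gm2a, the GM2 activator, between 948 and 1424 (median 1059).

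The membrane proteins were the most uniform role, with a median range of 1.30-fold over 5 probe sets. Lamp1 read 6613, 6555, 6754, 6097, 7333, 6219, 5963 and 6463 units in livers 1 to 8 and Lamp2 (100136_at) 3699, 3833, 4136, 4295, 3723, 4152, 4104 and 3537, ranges of 1.23-fold and 1.21-fold. A further Lamp2 probe set, 101590_at, ran the other way to the macrophage score without passing, and read 4525, 4597, 5730, 4493, 4890, 3942, 5217 and 4385 units (slope -0.14 ± 0.08, SE, limma adjusted p = 0.424, r = -0.622, rho = -0.857). Its r with 100136_at was 0.162. Scarb2, which carries glucocerebrosidase to the lysosome, read 1099, 1149, 924, 921, 1006, 993, 1132 and 885 units, with its lowest signals in livers 8, 4 and 3 (slope -0.12 ± 0.09, adjusted p = 0.553). Cd63, a tetraspanin of late endosomes, was the exception in range. It read 256, 253, 199.9, 478, 107, 156, 246 and 338 units, a range of 4.45-fold from liver 5 to liver 4, and passed the typical-variance test (adjusted p = 0.00162) but not the slope test (0.55 ± 0.24, limma adjusted p = 0.262), with r = 0.611 over all livers and -0.255 without livers 4 and 8. The phosphatases Acp2 (356 to 498 units, median 413) and Acp5, the tartrate-resistant enzyme of osteoclasts and macrophages (1067 to 1510, median 1152), had r of 0.208 and -0.038.

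No member followed the hepatocyte order past the threshold. In limma, 0 of 43 members and 0 of 6211 probe sets (0.0%) rose or fell with the hepatocyte score, with 8 members (18.6%) and 643 probe sets (10.4%) at an unadjusted p under 0.05. Exact permutation of r and of rho also gave 0 members and 0.0% of all probe sets. The score covered 1.26-fold, against 4.31-fold for the macrophage score, and its genes did not share 1 order. Lamp2 (101590_at), with a slope of 1.09 ± 0.48 (SE, unadjusted limma p = 0.0441, adjusted 0.461) and r = 0.777, and the Grn probe set 161546_r_at (slope 2.06 ± 0.87, unadjusted p = 0.0370, adjusted 0.443, r = 0.717) leaned furthest towards it. Ctsb (92256_at), Ctsh and Npc1 came next, with slopes of 1.31, 0.49 and 0.93 and adjusted p of 0.594, 0.828 and 0.740. The 6 members with negative slopes at an unadjusted p under 0.05 were the 4 called on the macrophage score, Asah1 (-2.68 ± 0.65, adjusted p = 0.235, r = -0.903) and Ctsd (-1.69 ± 0.47, adjusted p = 0.250). In livers 1 to 4 alone, where the scores' own r was -0.991, 3 of 43 members fell with the hepatocyte score, against 1.66% of all probe sets called in either direction (Ctsc, Ctss and Lgmn, slopes -10.2, -9.44 and -4.68), the genes that rose with the macrophage score in the same livers.

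**Figure D4:**
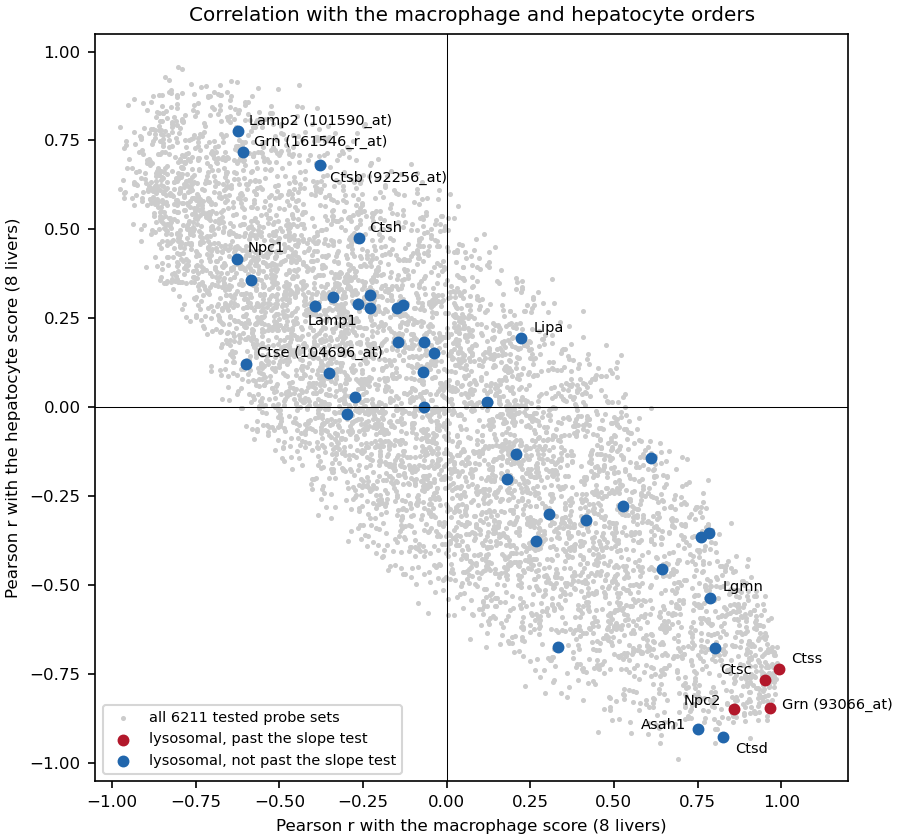
Pearson r of each probe set with the macrophage score (horizontal) and with the hepatocyte score (vertical) over the 8 livers, for all 6211 tested probe sets and the 43 lysosomal ones, with probe set identifiers where a gene has several. Ctss, Ctsc, Grn and Npc2 lie at the lower right, and the other members run along the same falling diagonal as the array as a whole.

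Set between these orders, the members divided evenly, with shares not far from those of all tested probe sets. This division therefore does not set the members apart from the array. For 21 of 43 (48.8%) the r with the macrophage score was positive and the larger, against 41.1% of all tested probe sets, and for 21 (48.8%) the same was true of the hepatocyte score, against 47.3%. Gaa was the remaining probe set, with r below 0 for both. The r with the hepatocyte score was above 0 for 23 members (53.5%), against 51.5% of all, and that with the macrophage score for 21 (48.8%), against 45.2%. The cysteine cathepsins and Lgmn had a median r with the macrophage score of 0.417, and the membrane proteins one of -0.229. These are descriptions of 9 and 5 probe sets, and a median without Lgmn was not taken. Liver 4, the highest in macrophage score, held the highest signal of 14 members (32.6%, against 17.2% of all tested probe sets) and the lowest signal of 5 (11.6%, against 22.6%).

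The probe sets of Grn opposed each other. Against the called 93066_at, 161546_r_at read 193, 319, 314, 220.0, 285, 185, 245 and 180.0 units in livers 1 to 8, lowest in liver 8 and highest in liver 2, and their r was -0.702. The suffix r is one by which Affymetrix marked probe sets picked under relaxed rules. The call for Grn is therefore a call of 1 of its 2 probe sets. Ctss, Ctsc and Npc2 had 1 tested probe set each.

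Other genes of the lysosome were examined with the same slope test, against a background of 4.65% called in either direction. Of the proton pump that acidifies the lysosome, 0 of 15 tested probe sets (13 genes) rose or fell with the macrophage score. Of the sorting and control genes, among them the mannose 6-phosphate receptor Igf2r, 0 of 7 (6 genes) did. Few calls would be seen among 15 or 7 at that background, so these counts do not set the lists apart from the array. Their median r was 0.072 and -0.030. Tfeb (20.5 to 81.9 units) and Mitf (48.7 to 90.5) were under the filter. Among other lysosomal genes 3 of 7 tested probe sets rose and 0 fell, against 3.28% and 1.37% of all tested probe sets. Cd68, the macrophage sialomucin, lay between 246 and 819 units (slope 0.75 ± 0.10, SE, limma adjusted p = 0.000858). Laptm5, a lysosomal membrane protein of blood cells, passed with both probe sets (slopes 2.14 ± 0.37 and 0.61 ± 0.10, adjusted p = 0.0142 and 0.00539). Ctsf, a cysteine cathepsin, had a slope of -0.38 ± 0.10 that did not pass (adjusted p = 0.0663). Of the cathepsin inhibitors, Cstb, cystatin B, rose with the score, at 2493 to 5146 units (slope 0.41 ± 0.10, adjusted p = 0.0406), and neither probe set of Cst3, cystatin C, passed (adjusted p = 0.367 and 0.490).

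Of all genes, those closest to the mean of the 4 called members were Fgl2 (r = 0.994 over 8 livers, 8.92-fold range), Gbp3 (r = 0.993, 61.0-fold) and Gbp2 (r = 0.992, 37.5-fold), chosen as the 3 non-members with the highest Pearson r. Fgl2 encodes a fibrinogen-like protein of immune cells, and the other 2 encode interferon-induced guanylate-binding proteins. These r come from the same 8 livers. In all, 204 tested probe sets rose with the macrophage score, among them 12 of the score's own probe sets, 18 of the MHC class II and interferon lists and the 4 lysosomal ones.

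The 15 untested member probe sets had mean signals of 8.48 to 146 units and no single signal above 192 units. For Gla, Glb1, Idua, Ppt1 and Galc no probe set was tested. Gla, an alpha-galactosidase, lay between 18.4 and 85.9 units, Idua, alpha-iduronidase, between 104 and 192, Galc, galactosylceramidase, between 29.8 and 52.8 and Ppt1, a palmitoyl thioesterase, between 13.7 and 48.1. The probe sets of Glb1, beta-galactosidase, lay between 35.9 and 168 and between 21.0 and 98.7. Without detection calls such signals cannot be told from background, and nothing is said here of the order of livers for them. The other 9 were further probe sets of Ctsb, Ctsc, Hexa, Gaa, Ids, Arsa and Smpd1 and lay between 3.1 and 188 units.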

How the data were processed

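Liver RNA of 8 mice was read on 1-colour arrays. The deposited table gave 1 linear intensity per probe set and array for 12488 probe sets. For the image software, scaling target and detection calls, the sources used here give nothing. Trimmed means (2% at each end) lay between 500.352 and 500.396 units on all arrays, so intensities were used as deposited. Probe sets were named from the platform annotation (10833 with 1 symbol, 396 with several, 1193 with none, besides 66 controls). All 58 member probe sets had an Entrez match in the RefSeq table of GRCm38.p6, which changed 0 symbols.

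Intensities under the 10th percentile (11.2) were raised to it before log2 transformation. Probe sets were tested where their mean log2 signal exceeded the non-control median (162 units), 6211 for 4819 genes. Scores were mean centred log2 signals of the listed genes that passed, 14 of 19 macrophage and 20 of 23 hepatocyte genes. Slopes were fitted with limma 3.58.1 in R 4.3.3 (intensity trend, robust prior, two-sided), with Benjamini-Hochberg adjustment over all tested probe sets and a threshold of 0.05. The typical-variance test took typical variances from loess (span 0.3) and a one-sided chi-square with 7 degrees of freedom. Exact permutation tests of r and rho were two-sided over all pairings of 8 livers. The labels name each sample as the liver of a mouse and mention no pooling, p-values measure only the spread between these 8 samples, and their number limits the precision. The fits were tested on simulated data.

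Members and gene lists were chosen with earlier results of these data known. Genes described liver by liver were the 8 members with the highest and the 6 with the lowest t on the macrophage score, the 5 highest on the hepatocyte score, the 6 largest and 4 smallest ranges, and those past a test. Other members are given by lowest, median and highest signal. Alternatives changed the scaling, filter, floor, prior, score, covariates, test and arrays. Signals of different probe sets were not compared with each other.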

Additional observations from a re-analysis of the deposited data

Results flagged for a closer look

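Of 43 member probe sets examined for a liver far from the other 7, 1 stood out. Psap (97560_at), the saposin precursor, read 122.5 units in liver 2. Gaps were taken between log2 signals only, and the gap to the next lowest liver was 0.62 of the whole range of its 8 log2 signals. The smallest gap that would have been named, Dixon's critical value for 8 samples, is smaller than this and is reached by about 1 in 20 groups by chance, so that more than 1 of the 43 could be expected. The other Psap probe sets were also low in liver 2, at 556 units, the lowest signal of 161476_at, and at 3715 units in 97114_at, where liver 7 was lower at 3374.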

How the results depend on the processing

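No paired analysis was possible because there was 1 group. The count of 4 members rising with the macrophage score was 2 with both scores in 1 fit and 2 by exact permutation of r. It was 0 by permutation of rho, 0 without livers 4 and 8, and 1 in livers 5 to 8 alone, where fewer livers were fitted. With 1 liver left out it lay between 2 (without liver 4 or liver 8) and 5. Over 24 alternatives Ctss was called in 22 (slopes 1.27 to 1.72), Ctsc in 20 (1.13 to 1.65), Grn (93066_at) in 17 (0.30 to 0.46) and Npc2 in 7 (0.19 to 0.43). All kept their direction. The count of 0 for the hepatocyte score was 3 in livers 1 to 4 alone. The count of 6 members past the typical-variance test was 0 by limma's variance test and between 5 and 8 with 1 liver left out. No member's call changed direction.

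Over all 6211 probe sets the 289 calls on the macrophage score became 74 without liver 4, 146 without liver 8, 153 in livers 1 to 4, 20 in livers 5 to 8, 53 with both scores, 170 with Kupffer cell markers alone and 69 by permutation of r. The 0 calls on the hepatocyte score became 86 with median scaling, 103 in livers 1 to 4, 27 with arrays 1 to 4 and 5 to 8 as a block, 14 with a median score, 3 without liver 6 and 1 without liver 1. The 699 calls of variance became 348 with the filter at the 75th percentile. The cause of these changes was not tested. Signal over background limits the untested members, whose signals cannot be told from background.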
